A study of Rattus norvegicus with 12 samples.

Results

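The genes described here are 10 endoplasmic reticulum (ER) stress genes, chosen by name: Hspa5, Hsp90b1, Calr, Pdia4, Herpud1, Xbp1, Atf4, Ddit3, Trib3 and Asns. They are 10 of the 13151 genes in a set of normalised RNA sequencing values from rat kidney cortex, and all 10 passed the filter on low values. The 12 rats were male and 32 weeks old, 4 in each of 3 groups. Zucker lean (ZL) rats were the lean control. In the study's methods the only ZL rats, and the ZF rats followed with them, had open kidney biopsies at earlier ages. No biopsy is described for the treated rats, and the part of this surgery in the results was not tested. Zucker fatty (ZF) rats were the untreated obese group, a strain that the study describes as leptin receptor-deficient, although the design text filed with the data calls it leptin-deficient. The third group (ZF-SGLT2i) was Zucker fatty rats given canagliflozin in their food at 10 mg/kg/day, starting at 24 weeks of age and lasting 8 weeks. Canagliflozin blocks SGLT2, the glucose transporter of the proximal tubule. The time of day of sacrifice was not given in the sources used here. The study's name for the sequenced untreated rats in one place is that of its nontreated group, which was bought and randomised together with the treated rats. Each library held 8824980 to 12210257 reads on genes. A value is close to CPM, reads scaled to a common library size, and 1 read was worth 0.0855 to 0.113 of it, depending on the rat. Reads on ribosomal RNA genes were 7.25 to 12.0% of each library in ZL rats, 8.82 to 12.0% in ZF rats and 11.5 to 15.2% in ZF-SGLT2i rats. Treated rats 3 and 6 were above all other rats, and treated rats 2 and 4 were within the range of the ZL rats.

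The ER folds secreted and membrane proteins with the help of chaperones and of enzymes that form disulfide bonds. When unfolded protein builds up, the sensors IRE1, PERK and ATF6 start the unfolded protein response. IRE1 splices the Xbp1 transcript, ATF6 is cut to a transcription factor, and both act on genes for chaperones and for ER-associated degradation. PERK phosphorylates eIF2alpha, which slows translation overall and raises translation of ATF4, a factor for amino acid genes and for Ddit3 (CHOP). The kidney tubule and the podocyte both have a large secretory and membrane protein load, and the response has been studied in each. Gene-level reads do not show Xbp1 splicing, ATF6 cleavage or eIF2alpha phosphorylation.

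The promoters of 5 of the 10 genes held one of the ER stress response elements, short sequences known to be bound by ATF6 and by spliced XBP1 together with the CCAAT-binding factor NF-Y. The element ERSE, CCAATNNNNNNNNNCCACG searched on both strands, was in 4 of the 10 (Hspa5, Hsp90b1 at 2 places, Xbp1 and Calr) against 0.0765% of all 27457 promoter windows of the same length. The shorter ERSE-II, which is ATTGG, any base and then CCACG, was in Herpud1 and in 0.0546% of windows. An ATF4 response core, TGATGNAA, was in Trib3 and Herpud1 and in 3.82% of windows. Only a short window around the annotated gene start was searched, so an element elsewhere, in Asns or any other gene, would be missed. The letters TGACGTGG, an XBP1 element called UPRE, were in none of the 10 and in 0.637% of windows. A plain CCAAT, which is also part of ERSE and, on the other strand, of ERSE-II, was in 7 of the 10 and in 37.7% of windows. A match is a description of letters and not of binding. The 10 genes were chosen by name as ER stress genes, so their shares beside those of all windows are no test of enrichment. The stretches follow because they show every match to ERSE, ERSE-II or the ATF4 core among the 10, in genes that changed and in genes that did not, 5′ to 3′ on the strand of the gene, with the matched element in capitals. A run of capitals that starts with CGTGG or TT is an element on the opposite strand. All lie before the annotated gene start (RefSeq, GRCr8).
Hspa5: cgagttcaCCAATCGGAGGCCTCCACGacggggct
Hsp90b1: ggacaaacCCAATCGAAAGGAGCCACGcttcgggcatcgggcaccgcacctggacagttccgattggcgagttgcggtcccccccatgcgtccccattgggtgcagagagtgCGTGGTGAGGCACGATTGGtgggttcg
Calr: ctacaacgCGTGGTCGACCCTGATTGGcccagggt
Xbp1: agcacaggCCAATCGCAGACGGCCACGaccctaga
Herpud1: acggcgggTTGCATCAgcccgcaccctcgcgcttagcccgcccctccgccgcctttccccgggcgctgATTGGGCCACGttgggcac
Trib3: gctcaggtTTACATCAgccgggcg

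The Hspa5 stretch is chr3:38452965-38452999 (plus strand, positions -51 to -17 from the gene start) and the Calr stretch is chr19:40213127-40213161 (plus strand, -240 to -206). The Hsp90b1 stretch is chr7:23012339-23012477 (minus strand, -184 to -46), with both ERSE copies, 1 on each strand. The Xbp1 stretch is chr14:84604550-84604584 (plus strand, -73 to -39). The Herpud1 stretch is chr19:10614813-10614899 (minus strand, -192 to -106) and the Trib3 stretch is chr3:161275539-161275562 (minus strand, -29 to -6). The files were made on another build, rn6, so these positions were not set against the reads.

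The 10 genes did not move as one block. Treatment came with a fall of Hspa5 and Calr (ZF-SGLT2i against ZF rats), and no gene of the 10 rose, by the test across all genes (limma, adjusted p under 0.05; 4 of the 10 were at an unadjusted p under 0.05). Of the 11633 genes tested 1.75% were called lower and 1.39% higher in that comparison. In ZF against ZL rats, Hsp90b1 and Calr fell and Asns rose, where 10.6% of all genes were called lower and 8.19% higher (1232 and 953 genes, against 942 and 1103 with quantile normalisation). Between treated and lean rats, 5 of the 10 fell (Hspa5, Hsp90b1, Calr, Pdia4 and Atf4) and 2 rose (Herpud1 and Asns), where the shares of all genes were 15.0% and 12.4%. The median log2 fold change of the 10 was -0.08 in ZF against ZL, -0.10 in ZF-SGLT2i against ZF and -0.20 in ZF-SGLT2i against ZL, and that of all genes was -0.0077, 0.0064 and -6.97e-05. The ZF rats serve in both of the first comparisons, so a chance shift in their values moves the 2 in opposite directions. In this bulk tissue, fewer cells of a type and less RNA per cell cannot be told apart.

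**Figure D1:**
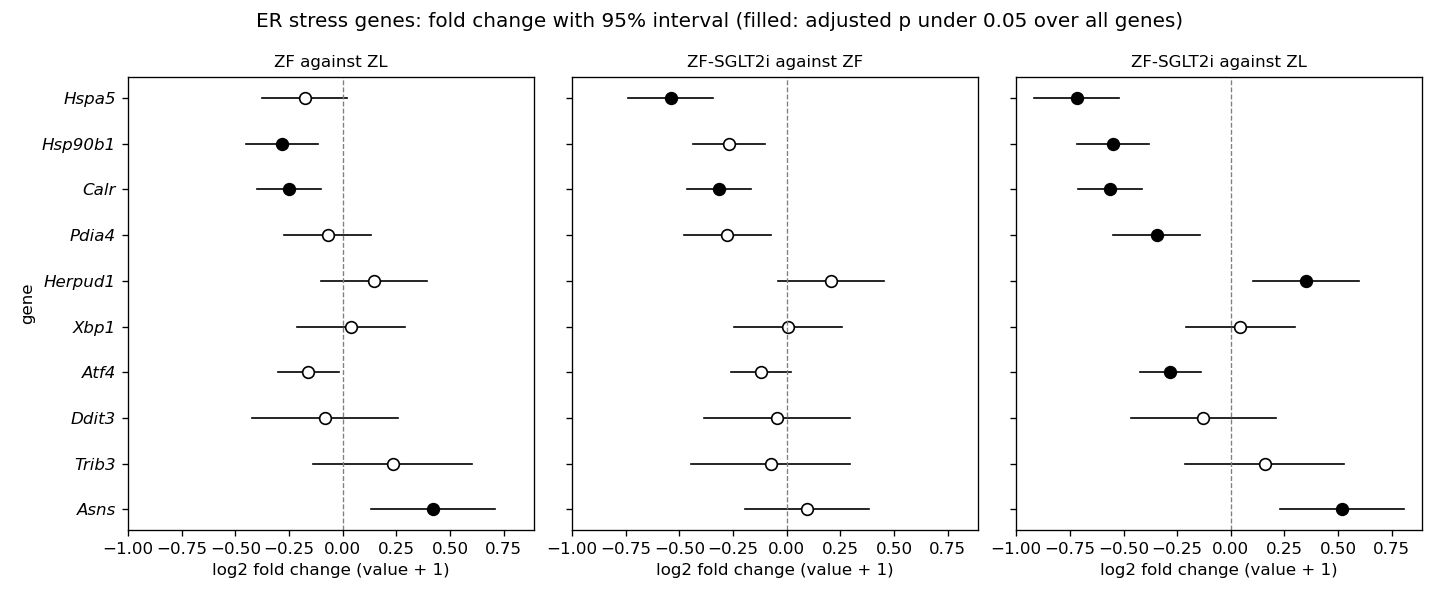
Log2 fold changes of the 10 genes on the scale log2(value + 1), with 95% intervals, in each of the 3 comparisons; filled points have a limma adjusted p under 0.05 over all genes tested. Hspa5 lies farthest to the left in the middle panel, at -0.54, and Herpud1 and Asns lie to the right of 0 in every panel.

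Hspa5 encodes BiP (GRP78), the main ER chaperone of the HSP70 family and the protein that holds the stress sensors inactive. Its values were 438, 492, 511 and 572 in ZL rats 1 to 4, 504, 458, 398 and 419 in ZF rats 2 to 5, and 300.1, 335, 307 and 278 in ZF-SGLT2i rats 2, 3, 4 and 6. All 4 treated rats were below all 8 others, while the ZL and ZF rats overlapped. The mean fell by 31.4% from 444 ± 46.5 in ZF to 305 ± 23.6 in ZF-SGLT2i rats (SD, n = 4 each). The log2 fold change was -0.54 ± 0.09 (SE; 95% interval -0.74 to -0.34; limma adjusted p = 0.00643; exact permutation p = 0.0286, the smallest that 4 against 4 can give). Groups without overlap in that comparison were found for 4 of the 10 genes (Hspa5, Hsp90b1, Calr and Herpud1), against 11.2% of all genes. The call held without any single rat. Between ZF and ZL rats the log2 fold change was -0.18 (95% interval -0.38 to 0.02; limma adjusted p = 0.197). Between ZF-SGLT2i and ZL rats it was -0.72 (limma adjusted p = 0.0001505).

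**Figure D2:**
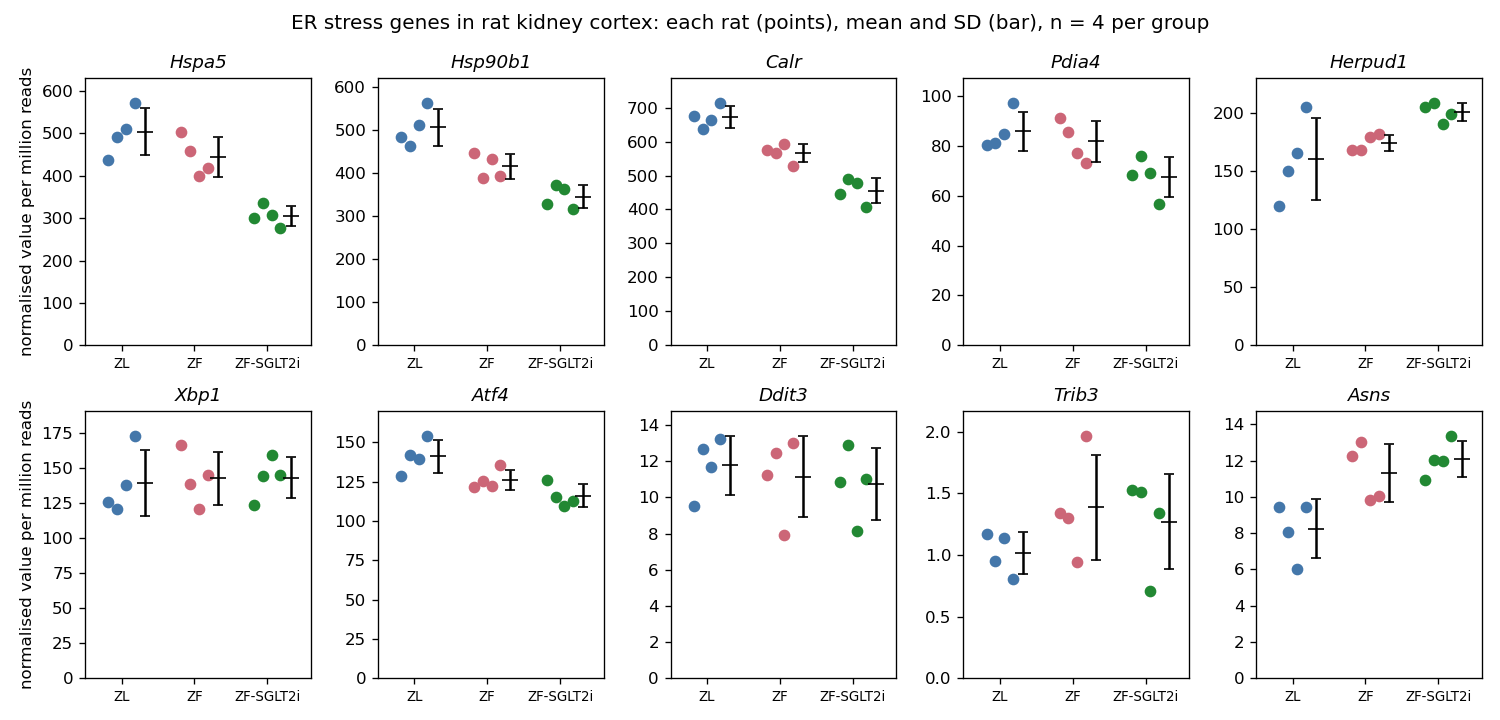
Normalised values of each of the 10 genes, close to CPM, in every rat (points) with the group mean and SD (bar), n = 4 per group; each panel has its own axis from 0. Hspa5 values of 278 to 335 in the ZF-SGLT2i rats lie below those of all other rats, and the 3 groups overlap for Xbp1, Ddit3 and Trib3.

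Calr encodes calreticulin, the calcium-binding chaperone that retains glycoproteins until they fold. Its values were 675, 638, 664 and 715 in ZL rats, 575, 566, 592 and 529 in ZF rats, and 446, 490.02, 478 and 408 in ZF-SGLT2i rats. The 3 groups stood in steps with no overlap between any 2 of them. From ZL to ZF the mean fell by 16.0%, from 673 ± 31.6 to 566 ± 26.8 (SD, n = 4 each; log2 fold change -0.25 ± 0.07 SE, limma adjusted p = 0.0239). From ZF to ZF-SGLT2i it fell by 19.5% to 456 ± 37.0 (log2 fold change -0.31 ± 0.07 SE, limma adjusted p = 0.0264). From ZL to ZF-SGLT2i it fell by 32.3% (limma adjusted p = 0.000107). The first 2 calls are close to the threshold. The fall in ZF-SGLT2i against ZF rats lost its call without ZF rat 2 (limma adjusted p = 0.0727), 3 (0.0735) or 4 (0.0724), or without ZF-SGLT2i rat 2 (0.0697) or 6 (0.0781). The fall in ZF against ZL rats lost it without ZL rat 1 (limma adjusted p = 0.0591) or 4 (0.0569) or ZF rat 3 (0.0569) or 5 (0.0668), and quantile normalisation left a log2 fold change of -0.03 (adjusted p = 0.753).

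Hsp90b1 encodes GRP94, the HSP90 of the ER, which folds integrins and Toll-like receptors. Its values were 485, 463, 513 and 564 in ZL rats, 448, 389, 433 and 394 in ZF rats, and 330, 373, 364 and 316 in ZF-SGLT2i rats. Its groups too stood in steps, with the highest treated rat at 373 and the lowest ZF rat at 389. In ZF against ZL rats the mean fell by 17.8% (507 ± 43.4 to 416 ± 29.1, SD, n = 4 each; limma adjusted p = 0.0244). Groups without overlap were found for 3 of the 10 genes there (Hsp90b1, Calr and Asns), against 19.0% of all genes. Between treated and untreated ZF rats the log2 fold change was -0.27 (95% interval -0.44 to -0.10), which did not pass across all genes (limma adjusted p = 0.0861; exact permutation p = 0.0286). It passed with DESeq2 on recovered reads (adjusted p = 0.0252) and with quantile normalisation (limma adjusted p = 0.0453). The fall in ZF against ZL rats lost its call without ZL rat 3 (limma adjusted p = 0.0513) or 4 (0.0614) or ZF rat 3 (0.0758) or 5 (0.064), and quantile normalisation left a log2 fold change of -0.09 (adjusted p = 0.471). From ZL to ZF-SGLT2i rats it fell by 31.8% (limma adjusted p = 0.0003148).

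Pdia4 (ERp72), an ER oxidoreductase that forms and rearranges disulfide bonds, took the values 80.3, 81.0, 84.6 and 97.3 in ZL rats, 91.0, 85.7, 77.2 and 73.1 in ZF rats, and 68.3, 75.8, 69.0 and 56.6 in ZF-SGLT2i rats. ZL and ZF rats overlapped throughout, and the highest treated rat lay above the lowest ZF rat. The log2 fold change in ZF-SGLT2i against ZF rats was -0.28 (95% interval -0.48 to -0.07; limma adjusted p = 0.139). Pdia4 fell by 21.4% in ZF-SGLT2i against ZL rats (limma adjusted p = 0.0156), and the call was lost without ZF-SGLT2i rat 6 (adjusted p = 0.0514).

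Herpud1 encodes HERP, which sits at the ER membrane and brings the ubiquitin ligase HRD1 together for ER-associated degradation. Its values were 121, 150.5, 166 and 205 in ZL rats, 168, 168, 179 and 182 in ZF rats, and 206, 209, 191 and 199.5 in ZF-SGLT2i rats. All 4 treated rats were above all 4 ZF rats, and the ZL rats spread from below all ZF rats to within the range of the treated rats. The SD was 35.2 in ZL rats, 7.24 in ZF rats and 7.90 in ZF-SGLT2i rats. The mean was 201 in treated against 174 in untreated ZF rats, a log2 difference of 0.21 (95% interval -0.04 to 0.45; limma adjusted p = 0.391; exact permutation p = 0.0286). Limma takes 1 spread from all 3 groups, and for this gene the ZL rats set most of it. Herpud1 rose by 0.35 on the log2 scale in ZF-SGLT2i against ZL rats (limma adjusted p = 0.0369), with overlapping groups and an exact permutation p of 0.0857. That call was lost without ZL rat 1 (limma adjusted p = 0.0959) or 2 (0.0741) or ZF-SGLT2i rat 2 (0.0768), 3 (0.0894) or 6 (0.0744), in the fit with only the 2 groups compared (0.0674) and with edgeR on recovered reads (0.0523).

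Xbp1 is the transcript that IRE1 splices, and its 3 groups overlapped. Its values were 126, 121, 138 and 173 in ZL rats, 166, 139, 121 and 145 in ZF rats, and 124, 145, 159 and 145 in ZF-SGLT2i rats. The log2 fold change was 0.04 in ZF against ZL rats (95% interval -0.21 to 0.29; limma adjusted p = 0.861) and 0.0072 in ZF-SGLT2i against ZF rats (95% interval -0.25 to 0.26; limma adjusted p = 0.983). Any change from -0.245 to 0.259 in treated rats lies within that interval.

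Atf4, the transcription factor that PERK and the other eIF2alpha kinases raise through translation, took the values 129, 142, 139 and 154 in ZL rats, 122, 125, 122 and 135 in ZF rats, and 126, 115, 109 and 113 in ZF-SGLT2i rats. The means stood in the order ZL (141 ± 10.4), ZF (126 ± 6.30) and ZF-SGLT2i (116 ± 7.34; SD, n = 4 each), and neighbours in that order overlapped. Only the difference between the ends passed, where Atf4 fell by 17.9% in ZF-SGLT2i against ZL rats (limma adjusted p = 0.0064; no overlap). There 6 of the 10 genes had groups that did not overlap (Hspa5, Hsp90b1, Calr, Pdia4, Atf4 and Asns), against 28.0% of all genes. For ZF against ZL rats the limma adjusted p was 0.105 and for ZF-SGLT2i against ZF rats 0.372.

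Ddit3 (CHOP), the factor tied to cell death under prolonged ER stress, had 81 to 148 reads per rat. Its values were 9.51, 12.7, 11.7 and 13.2 in ZL rats, 11.2, 12.4, 7.95 and 13 in ZF rats, and 10.9, 12.9, 8.15 and 11.0 in ZF-SGLT2i rats. Rat 4 was the lowest in both ZF groups and the 3 groups overlapped. The log2 fold change was -0.08 in ZF against ZL rats (95% interval -0.42 to 0.26; limma adjusted p = 0.759) and -0.04 in ZF-SGLT2i against ZF rats (95% interval -0.38 to 0.30; limma adjusted p = 0.92).

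Trib3, a pseudokinase induced by ATF4 and CHOP, was the least read of the 10, with 7 to 18 reads per rat. Its values were 1.17, 0.954, 1.13 and 0.804 in ZL rats, 1.34, 1.3, 0.94 and 1.97 in ZF rats, and 1.52, 1.51, 0.704 and 1.34 in ZF-SGLT2i rats. The groups overlapped, and no difference was detectable at this depth (log2 fold change 0.23, 95% interval -0.14 to 0.60, limma adjusted p = 0.379 in ZF against ZL; -0.07, 95% interval -0.45 to 0.30, limma adjusted p = 0.872 in ZF-SGLT2i against ZF).

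Asns, asparagine synthetase and a classical ATF4 target, moved the other way from the chaperones. Its values were 9.42, 8.06, 6.01 and 9.47 in ZL rats, 12.3, 13, 9.83 and 10.1 in ZF rats, and 10.9, 12.0, 12.0 and 13.4 in ZF-SGLT2i rats, from 53 to 130 reads per rat. Every ZL rat was below every obese rat, treated or not, and the 2 obese groups overlapped. Asns rose by 37.1% in ZF against ZL rats (log2 fold change 0.42 ± 0.13 SE; limma adjusted p = 0.0427; exact permutation p = 0.0286). It rose by 46.6% in ZF-SGLT2i against ZL rats (limma adjusted p = 0.0121), and the log2 fold change between the 2 obese groups was 0.09 (95% interval -0.19 to 0.38; limma adjusted p = 0.775). The rise in ZF against ZL rats was lost without ZL rat 2 (limma adjusted p = 0.0693) or 3 (0.105), ZF rat 2 (0.11) or 3 (0.123), or ZF-SGLT2i rat 2 (0.0514), 3 (0.0577) or 4 (0.0543). It was also lost with quantile normalisation (0.053), with no filter on low values (0.0505) and in the fit of the 2 groups alone (0.0867).

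Across the 12 rats the chaperones followed each other closely, as a description with no test: the rats share the 3 group means and the library scaling. Pearson r of log2(value + 1) was 0.97 for Hsp90b1 with Calr, 0.92 for Hspa5 with Calr and 0.92 for Hspa5 with Pdia4. After each group's mean was taken out, r was 0.88 for Hspa5 with Pdia4, 0.85 for Hsp90b1 with Calr and 0.50 for Hspa5 with Calr. Herpud1 had an r of -0.45 with Hspa5 over the 12 rats and 0.56 within groups, so the 2 differ in direction between groups and go the same way among rats of a group. Among the 8631 tested genes with a mean value of at least 10, the 5 most like Hspa5 were Calr (0.92), Pdia4 (0.92), Ablim3 (0.91), Hsp90b1 (0.91) and Pcsk1n (0.91), so 3 of the 5 were genes of the 10. The 4 most like Asns were Sgce (0.96), Cdk19 (0.94), Klf16 (0.93) and Capn5 (0.93), none of them on a list used here.

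The wider list of ER chaperones and their co-factors had 20 genes in the table. In the limma fit of all rats it was the ER list with the largest share of genes called lower in each comparison. In ZF against ZL rats this rank was lost with quantile normalisation (3 of 20, against 4 of 26 ATF4 targets). It was also lost there without ZF rat 5 (1 chaperone, against at least 3 ATF4 targets with any 1 rat left out). In ZF-SGLT2i against ZF rats it was lost in a fit with the rat number as a term (1 of 20, against 1 of 19 tRNA synthetases). Chaperone lists outside the ER had larger shares in ZF against ZL rats (6 of 14 cytosolic and 5 of 9 mitochondrial genes, against 6 of 20). The same held in ZF-SGLT2i against ZL rats (9 of 14 and 6 of 9, against 12 of 20). Under treatment 3 of the 20 fell and none rose in ZF-SGLT2i against ZF rats (Hspa5, Calr and Serpinh1; median log2 fold change of the list -0.10), where 1.75% of all genes were called lower. Without Hspa5, Hsp90b1 and Calr, 1 of 17 fell and the median was -0.04. With any 1 rat left out the number that fell was between 2 and 4. In ZF against ZL rats 6 fell and none rose (median -0.15; 10.6% of all genes were called lower), between 1 (without ZF rat 5) and 7 falling with 1 rat left out, and 3 fell and 1 rose with quantile normalisation. Without the 3 named genes 4 of 17 fell there. Treated against lean rats, 12 fell and 1 rose (median -0.26; 15.0% of all genes were called lower), between 9 and 13 falling with 1 rat left out and 8 with quantile normalisation, and 9 of 17 fell without the 3 named genes. Serpinh1 (HSP47), the chaperone particular to collagen, had values of 127, 151, 144 and 161 in ZL rats, 163, 147, 156 and 143 in ZF rats, and 120, 119, 106 and 111 in ZF-SGLT2i rats. All treated rats were below all others, and Serpinh1 fell from 152 ± 8.95 to 114 ± 6.62 in treated rats (limma adjusted p = 0.00827), a call that held without any single rat. Sdf2l1, a partner of BiP, showed the largest fall of the list between the ends of the order, from 14.4 ± 2.56 in ZL to 6.26 ± 0.548 in ZF-SGLT2i rats (log2 fold change -1.08, limma adjusted p = 0.0002658), with 9.85 ± 2.46 in ZF rats. Manf, a secreted protein that also binds BiP, fell over the same comparison from 17.7 ± 3.21 to 11.0 ± 0.638 (limma adjusted p = 0.00147). Fkbp2, a proline isomerase, fell in ZF against ZL rats from 33.6 ± 3.23 to 23.5 ± 1.24 (limma adjusted p = 0.00432). Dnajc10 (ERdj5), a disulfide reductase of the degradation path, was the only gene of the 20 to rise, from 182 ± 10.7 in ZL to 216 ± 10.1 in ZF-SGLT2i rats (limma adjusted p = 0.00712).

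**Figure D3:**
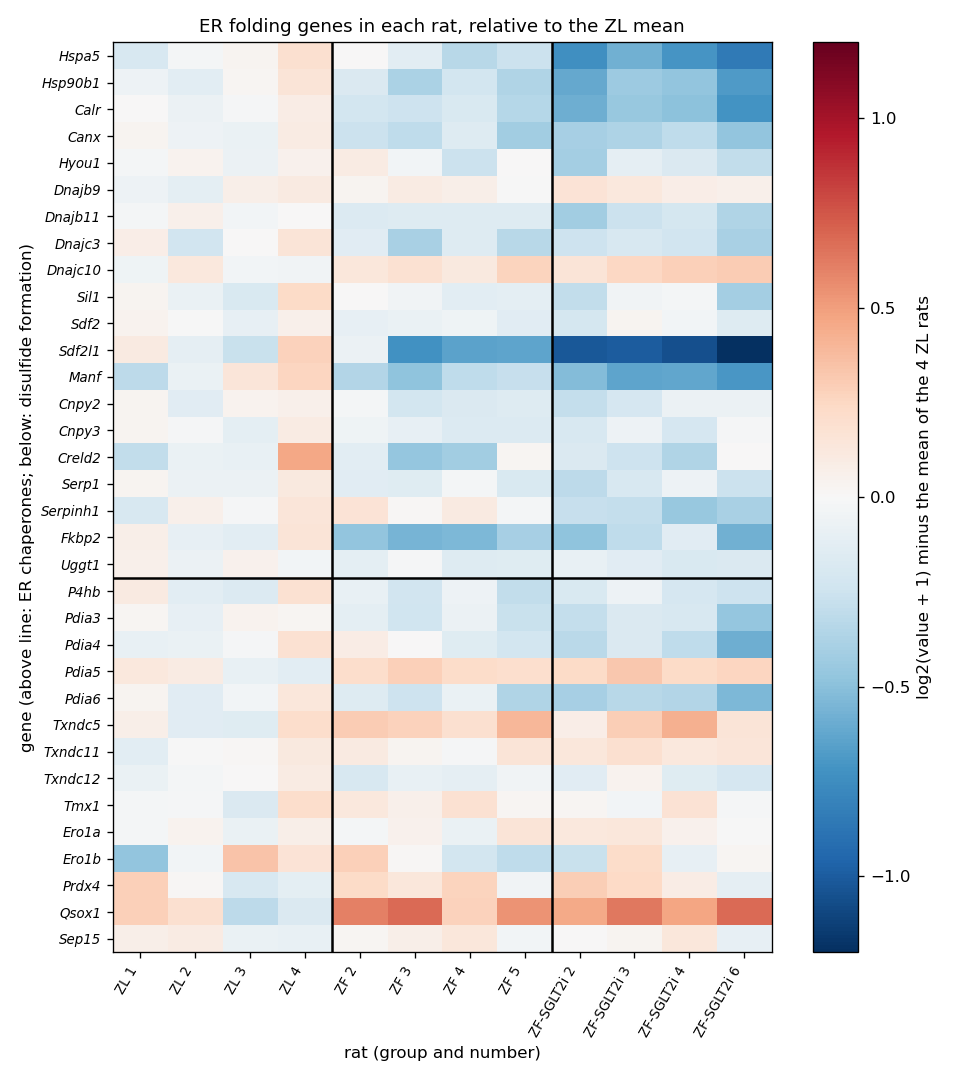
Colour shows log2(value + 1) minus the mean of the 4 ZL rats for 34 genes of ER folding (20 chaperones above the line, 14 genes of disulfide formation below it; Sep15 is the table's name for Selenof), 1 column per rat. Hspa5, Hsp90b1, Calr, Sdf2l1 and Manf are darkest blue in the ZF-SGLT2i columns, and Dnajc10 and Qsox1 are red in most columns of both obese groups.

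The enzymes of disulfide formation formed a separate list, and its difference from the chaperone list was not tested. Of 14 genes, none was called in ZF-SGLT2i against ZF rats by limma (median log2 fold change -0.01; 2 at an unadjusted p under 0.05), by edgeR or by DESeq2 (0 each). In ZF against ZL rats 2 rose (8.19% of all genes were called higher there and 10.6% lower), Qsox1 from 9.82 ± 2.12 to 14.4 ± 1.80 (limma adjusted p = 0.0165; 0.0536 without ZF rat 3) and Txndc5 (64.4 ± 7.91 to 78.8 ± 4.71, limma adjusted p = 0.0395, lost in 9 of 22 alternative fits), and none fell. Treated against lean rats, where 15.0% of all genes were called lower and 12.4% higher, 3 fell, Pdia6 (149 ± 12.1 to 112 ± 7.33, limma adjusted p = 0.00176), Pdia3 and Pdia4, while Qsox1 and Pdia5 rose. The Pdia5 call was lost in 8 of 22 alternative fits, among them those without ZL rat 3 or 4 or treated rat 3 or 6, and quantile normalisation left a Pdia3 log2 fold change of -0.15 in place of -0.28, no longer called. Among 21 genes of ER-associated degradation, Vimp (selenoprotein S, which ties the ATPase VCP to the membrane) rose in ZF-SGLT2i against ZF rats, from 32.2 ± 1.31 to 38.2 ± 0.920 (limma adjusted p = 0.0441). That call was lost in 15 of 22 alternative fits, 10 of them with 1 rat left out, with an adjusted p of at most 0.139. Rnf5, a ubiquitin ligase of the ER membrane, fell in ZF against ZL rats from 103 ± 7.14 to 73.5 ± 7.57 (limma adjusted p = 0.00187), and 3 of the 21 genes of the list fell there in all (Rnf5, Vimp and Rnf185), near the 10.6% of all genes called lower. That count was 1 without ZL rat 1 or 4 or ZF rat 2 or 3, and the calls of Vimp and Rnf185 each held in 13 of 22 alternative fits. Of 23 genes of the translocon and early transport, 1 fell in ZF against ZL rats (Sec61b; 0 without ZL rat 1 or ZF rat 2; 10.6% of all genes were called lower) and none was called in ZF-SGLT2i against ZF rats by limma (1 at an unadjusted p under 0.05), edgeR or DESeq2.

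Among 23 stress sensors and transcription factors, the sensor genes Ern1 (IRE1), Eif2ak3 (PERK) and Atf6 were not called in ZF-SGLT2i against ZF rats (log2 fold changes 0.12, -0.06 and -0.11), where 2 other genes rose and none fell by limma (4 at an unadjusted p under 0.05), where 1.39% of all genes were called higher and 1.75% lower. DESeq2 called 3 genes of this list, 1 of them lower, and edgeR called 2. Both that rose are factors. Creb3l3 (CREBH), an ER-anchored factor known from liver and gut lipid metabolism, had values of 0.897, 0.433, 0.454 and 0.179 in ZL rats, 2.21, 3.31, 5.38 and 4.70 in ZF rats, and 10.3, 13.3, 8.35 and 12.3 in ZF-SGLT2i rats. The 3 groups did not overlap, and Creb3l3 rose in ZF against ZL rats by 1.69 (limma adjusted p = 0.0003108) and in ZF-SGLT2i against ZF rats by 1.33 on the log2(value + 1) scale (limma adjusted p = 0.00517), both without loss of the call when any 1 rat was left out. Cebpb rose in ZF-SGLT2i against ZF rats from 20 ± 2.26 to 34.9 ± 8.02 (limma adjusted p = 0.0282), with ZF-SGLT2i rat 4 at 22.8 and the other 3 treated rats at 38.5 to 39.2. The Cebpb call was lost without ZF rat 2, 3 or 4 or ZF-SGLT2i rat 2, 3 or 6 (adjusted p of at most 0.0961). Creb3l1, a relative that acts on matrix genes, fell in ZF against ZL rats from 30.3 ± 4.78 to 14.2 ± 3.43 (limma adjusted p = 0.0007241). In all, 2 of the 23 rose there and 1 fell (8.19% and 10.6% of all genes). Beside Creb3l3, Atf3 rose from 3.19 ± 0.724 to 6.24 ± 2.09 (limma adjusted p = 0.0452), called in 10 of 21 alternative fits. Treated against lean rats, 5 of the 23 rose and 2 fell (12.4% and 15.0% of all genes). With any 1 rat left out, 2 to 4 rose and 2 fell.

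Of 26 ATF4 targets tested, 6 rose and 3 fell in ZF against ZL rats, where 8.19% of all genes were called higher and 10.6% lower. Against ZL rats, 8 rose and 5 fell in ZF-SGLT2i rats, where the shares were 12.4% and 15.0%. The counts that fell are near the background. Slc7a5, an amino acid carrier, rose from 8.48 ± 1.32 to 16.4 ± 3.93 in ZF against ZL rats (limma adjusted p = 0.00428), and the glycine carrier Slc6a9 from 5.85 ± 1.26 to 9.37 ± 0.926 (limma adjusted p = 0.00655). The serine synthesis genes Psat1 (244 ± 17.6 to 159 ± 44.2, limma adjusted p = 0.0137) and Psph (51.3 ± 11.4 to 26.8 ± 7.85, limma adjusted p = 0.00657) and the cysteine synthesis gene Cth fell there, each a gene that the proximal tubule also uses. Between treated and untreated ZF rats 1 of the 26 rose, Gpt2 (9.63 ± 2.12 to 15.8 ± 2.87, limma adjusted p = 0.0241), and 1 fell, Aldh18a1 (16.8 ± 0.986 to 12.6 ± 0.852, limma adjusted p = 0.0293). In that comparison 1.39% of all genes were called higher and 1.75% lower. With 1 rat left out, 0 to 3 of the ATF4 targets rose and 0 to 2 fell. The Gpt2 call was lost without ZF rat 2, 3 or 4 or ZF-SGLT2i rat 2, 3 or 6 (adjusted p of at most 0.0855), and the Aldh18a1 call without ZF rat 2, 3 or 4 or ZF-SGLT2i rat 3, 4 or 6 (at most 0.0997). Of 19 cytosolic tRNA synthetases, some driven by ATF4, 1 fell and none rose in ZF-SGLT2i against ZF rats (1.75% of all genes were called lower). It was Aars, with 183, 213, 224 and 184 in ZF rats and 150.2, 152, 163 and 143 in ZF-SGLT2i rats (limma adjusted p = 0.00827). The 2 groups did not overlap and the call held without any single rat. Treated against lean rats, where 15.0% of all genes were called lower, 8 of the 19 fell and none rose, with 4 falling without ZL rat 1 or without ZF-SGLT2i rat 6. Of 11 cell death genes linked to ER stress, none was called in ZF-SGLT2i against ZF rats by limma (1 at an unadjusted p under 0.05), edgeR or DESeq2. Between ZF and ZL rats, where 10.6% of all genes were called lower and 8.19% higher, 2 of these fell, Bcl2l1 (216 ± 19.7 to 170 ± 11.2, limma adjusted p = 0.00813) and Tmbim6 (621 ± 27.1 to 504 ± 46.1, limma adjusted p = 0.0203), and 1 rose, Bak1. The Bak1 call was lost in 14 of 22 alternative fits and the Tmbim6 call in 5, 3 of them without ZL rat 1, ZF rat 2 or ZF rat 5. Quantile normalisation left a Tmbim6 log2 fold change of -0.08 in place of -0.30 (adjusted p = 0.425).

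Chaperones of other compartments were counted in the same way. Of 14 chaperones of the cytosol, 6 fell and none rose in ZF against ZL rats (3 without ZF rat 3; 10.6% of all genes were called lower), 1 fell in ZF-SGLT2i against ZF rats (1.75% of all genes), and 9 fell and 2 rose in ZF-SGLT2i against ZL rats (15.0% and 12.4% of all genes). Hsp90aa1, the inducible cytosolic HSP90, fell from 429 ± 22.6 to 327 ± 25.1 in ZF against ZL rats (limma adjusted p = 0.00255) and then to 262 ± 17.3 in ZF-SGLT2i rats (limma adjusted p = 0.0264, lost without ZF rat 2 or 4 or ZF-SGLT2i rat 2, 3 or 6). The 2 that rose against ZL rats were Hspa1a and Hspa1b, near-identical copies of the inducible HSP70 whose reads cannot be told apart with certainty. Of 9 mitochondrial chaperones and proteases, 5 fell in ZF against ZL rats (10.6% of all genes) and 6 in ZF-SGLT2i against ZL rats (15.0%). In ZF-SGLT2i against ZF rats none was called by limma (1 at an unadjusted p under 0.05), edgeR or DESeq2. Hspe1, the mitochondrial HSP10, fell in ZF against ZL rats from 51.0 ± 8.50 to 29.2 ± 3.85 (limma adjusted p = 0.0039). Over all 10 lists, without the 10 genes chosen by name, 170 genes were tested, to be read against the shares of all genes given above for each comparison. Of these 26 fell and 11 rose in ZF against ZL rats, 4 fell and 4 rose in ZF-SGLT2i against ZF rats, and 47 fell and 20 rose in ZF-SGLT2i against ZL rats. With quantile normalisation the last of these became 32 that fell and 26 that rose, and the first 21 and 13. The 8 calls in ZF-SGLT2i against ZF rats became 3 without ZF rat 2 or 4 or ZF-SGLT2i rat 3 or 6, and 4 when ZF rat 3 or treated rat 2 was left out.

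**Figure D4:**
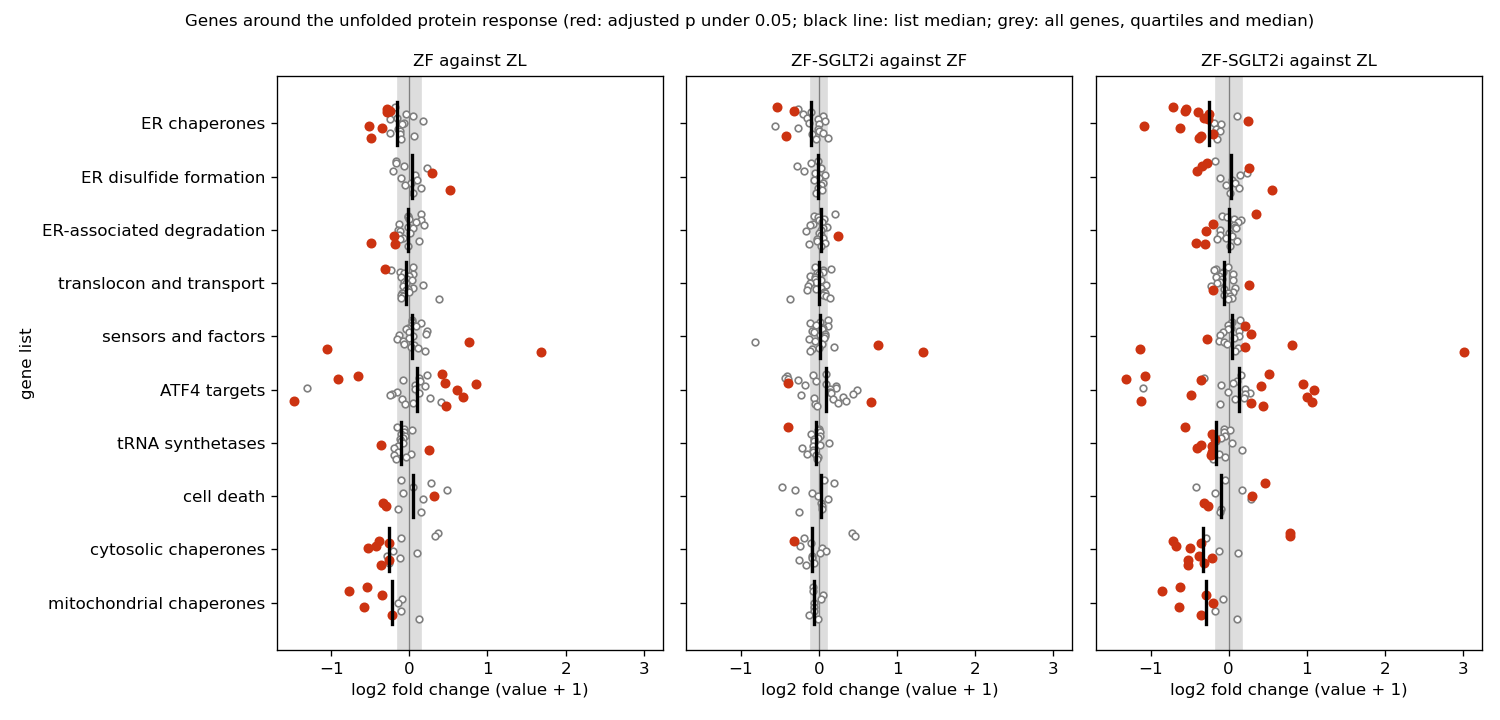
Log2 fold changes on the scale log2(value + 1) of every tested gene of the 10 lists (the 10 named genes included) in the 3 comparisons; red points have a limma adjusted p under 0.05, black bars are list medians, and the grey band and line are the quartiles and median of all genes. The ER chaperone medians of -0.15, -0.10 and -0.26 lie left of the line in all 3 panels, and the ATF4 targets spread to both sides.

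Genes with an ER stress element in the promoter were counted as well. Of the 25 tested genes whose promoter held ERSE or ERSE-II, 5 were genes of the 10 and 20 were others. Under treatment none of the 20 others was called by limma, where 1.75% of all genes were called lower and 1.39% higher, so a count of 0 is near the background (12 had a log2 fold change under 0; median -0.01). By limma 3 were at an unadjusted p under 0.05. These 3 were singled out after their values were seen. Hyou1, another HSP70 of the ER, had a log2 fold change of -0.20 (limma adjusted p = 0.2), Dnajb11 (ERdj3), a co-factor of BiP, one of -0.15 (limma adjusted p = 0.146) and Pan2 one of 0.27 (limma adjusted p = 0.251). Treated against lean rats, 5 of the 20 fell (Canx, Dnajb11, Dnajc3, Ggct and Hyou1) and 1 rose (Ppm1l), where the shares of all genes were 15.0% and 12.4%. Xbp1 and Herpud1, which hold the elements too, did not fall in any comparison.

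Values of cell type markers and of clock genes moved with the same groups. Markers of the cortex were present as labelled, with Lrp2 of the proximal tubule at a mean of 10736 and Podxl of the podocyte at 747 in ZL rats. The summed value of 10 proximal tubule markers was 25770.0 ± 1807 in lean, 19948 ± 2530 in obese and 17534 ± 2045 in treated obese rats, and it overlapped between the 2 obese groups (17524 to 23504 against 14792 to 19561). In ZF against ZL rats 3 of these 10 markers fell and 1 rose, where 10.6% of all genes were called lower and 8.19% higher. The 1 that rose was Slc22a6 (log2 fold change 0.33, limma adjusted p = 0.04025, called in 13 of 22 alternative fits). In ZF-SGLT2i against ZF rats 1 of the 10 fell (Slc22a6) and none rose, where 1.75% of all genes were called lower and 1.39% higher. Of 7 tested fibroblast and matrix markers, 4 fell and none rose in ZF-SGLT2i against ZF rats, against the same 1.75% of all genes, and Serpinh1 also fell there. Among them Col3a1 fell from 144 ± 36.2 to 68.6 ± 10.2 (limma adjusted p = 0.00553). The summed value of the whole list of 9 was 672 to 1129 in untreated ZF rats, 530.2 to 617 in treated rats and 521 to 780 in lean rats. Collecting duct markers were higher in treated rats, with a sum of 2492 to 2836 against 1469 to 2198 in ZF rats, and Aqp2 was the 1 of 7 called by limma (adjusted p = 0.0495, lost in 14 of 22 alternative fits). In that comparison 6 of the 7 were at an unadjusted p under 0.05, and DESeq2 called 3 and edgeR 0. Against ZL rats, limma called 6 of the 7 higher in ZF-SGLT2i rats, where 12.4% of all genes were called higher. Injured tubule markers rose in ZF against ZL rats (9 of 12, none fell; 8.19% of all genes were called higher). In ZF-SGLT2i against ZF rats 1 of 12 fell (1.75% of all genes were called lower). It was Vcam1 (limma adjusted p = 0.0387, called in 15 of 22 alternative fits). Podocyte markers rose in ZF against ZL rats (5 of 8, against the same 8.19%) and none was called in ZF-SGLT2i against ZF rats by limma (1 at an unadjusted p under 0.05), edgeR or DESeq2. The part of these markers in the results on ER stress genes was not tested.

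**Figure D5:**
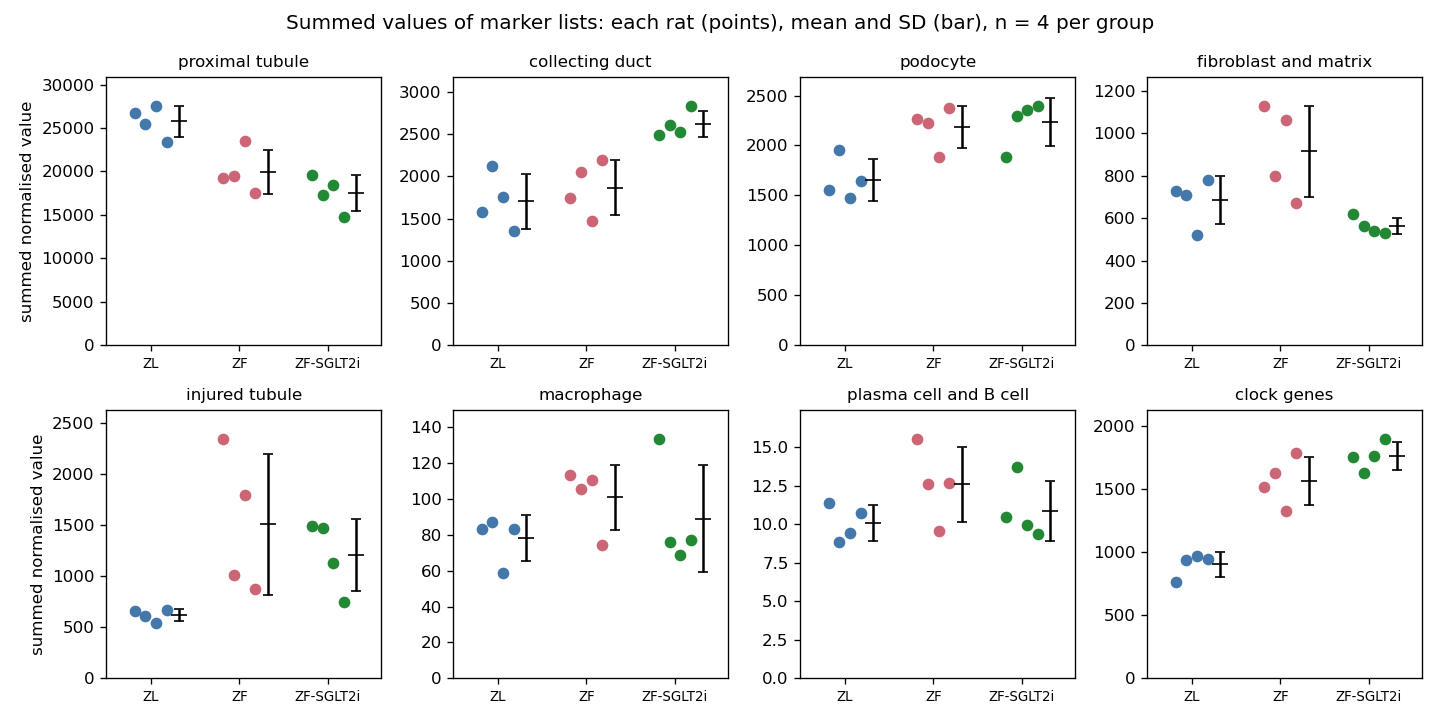
Summed normalised values of 7 marker lists and the clock genes in every rat (points), with the group mean and SD (bar), n = 4 per group; each panel has its own axis from 0. The clock sum is 759 to 967 in ZL rats and 1328 to 1894 in the obese rats, and the fibroblast and matrix sum of the treated rats, 530.2 to 617, lies below all ZF rats.

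Plasma cells, which hold very large amounts of ER chaperones, left little signal. Of the marker list for plasma cells and B cells, 5 genes were in the table and 2 of them were under 1 in every rat. Their sum was 10.1 ± 1.17 in lean, 12.6 ± 2.43 in obese and 10.9 ± 1.95 in treated obese rats, with Prdm1 the most abundant, and none of the 3 tested was called in any comparison by limma, edgeR or DESeq2, or was at an unadjusted p under 0.05. The defining genes Jchain, Cd79a, Cd79b and Ms4a1 were not in the table. Of 7 tested endothelial markers 1 rose in ZF against ZL rats, where 8.19% of all genes were called higher. None was called in ZF-SGLT2i against ZF rats, where 1.39% of all genes were called higher and 1.75% lower. The same counts held for 7 tested macrophage markers. In ZF against ZL rats 1 of 6 markers of the thick limb and distal tubule and 1 of 3 of the inner medulla fell (10.6% of all genes). There 1 of 4 tested blood markers rose (8.19% of all genes). None of these 3 lists had a limma call in ZF-SGLT2i against ZF rats (DESeq2 called 1 gene of each).

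The clock genes separated lean from obese rats. Of 14 clock genes, 8 rose and 4 fell in ZF against ZL rats (8.19% and 10.6% of all genes) and none was called in ZF-SGLT2i against ZF rats by limma (3 at an unadjusted p under 0.05), edgeR or DESeq2. Arntl (BMAL1) fell from 43.1 ± 9.21 in ZL to 3.59 ± 2.45 in ZF rats and stood at 2.43 ± 0.465 in ZF-SGLT2i rats, and Dbp rose from 40.7 ± 17.6 to 254 ± 52.0 and stood at 297 ± 31.7 (limma adjusted p = 1.12e-05 for both in ZF against ZL). The part of the clock genes in these results was not tested.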

How the data were processed

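The authors deposited normalised signal values for 13151 genes in 12 rats, made from read counts by scaling each library. In every rat 100% of values were whole multiples (tolerance 0.01) of 1 constant, equal to that of CPM with edgeR's TMM scaling, so whole reads could be recovered. The submitters' processing notes name Trimmomatic 0.38, RSEM 1.3.0, Bowtie2, edgeR and the build rn6; the annotation is not given in the sources used here. RNA was rRNA-depleted and strand-specific. Genes at 1 or above in 4 or more rats (11633) were fitted with limma 3.58.1 (R 4.3.3) on log2(value + 1), 3 groups in 1 fit with a trend, Benjamini-Hochberg adjustment over all of them and calls under 0.05, since the deposited values are not counts. Fold changes on that scale understate low genes. Single genes also had a two-sided exact permutation test (70 assignments, smallest p 0.0286). edgeR 4.0.16 and DESeq2 1.42.0 were run on recovered reads as alternatives (edgeR called 2180, 368 and 3216 genes in ZF against ZL, treated against ZF and treated against ZL rats), and the fits were tested on simulated data. Within each group, the values of every pair of rats differed. Whether rat numbers shared between groups pair the rats could not be decided from 3 shared numbers per comparison, and the main fit did not use them. Separate animals are implied by the labels but not the litters. The 10 genes and all lists were chosen with earlier results of these data known. From each list up to 3 called genes each way, by size, could be named, with the 10 genes always named and the 5 genes most like Hspa5 and Asns, of which 1 is not reported here. Promoters came from RefSeq (GRCr8), and the genes grouped by element were chosen after their values were seen.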

Additional observations from a re-analysis of the deposited data

Results flagged for a closer look

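No value of the 10 ER stress genes had a rat far from the other 3 of its group. Of 96 groups of 4 tested (10 genes and 22 summed lists in 3 groups), 6 had 1 rat apart, and chance flags about 1 in 20 groups, or 4.8 here. The summed value of the ER chaperones was 4283 in ZL rat 4, against 3835 to 3889 in the other ZL rats. The mitochondrial chaperones and proteases summed to 1832 in ZF rat 4, against 1536 to 1585 in the other ZF rats. In ZL rat 3 the inner medulla markers summed to 234 (284 to 293 in the others) and the macrophage markers to 59.0 (83.1 to 87.4). Among treated rats, number 2 had a macrophage sum of 134, where the other 3 had 69.0 to 77.1. The clock genes summed to 759 in ZL rat 1, against 933 to 967 in the other ZL rats.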

How the results depend on the processing

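No fold change of the 10 genes that was called reversed under 22 alternatives. Which direction had more calls among all genes did turn: quantile normalisation gave 1103 higher and 942 lower in ZF against ZL rats and 1608 and 1467 in treated against lean rats, and the replicate block 412 and 395 in ZF against ZL rats. In treated against untreated ZF rats (162 higher and 204 lower) it turned with 1 rat left out, to 98 and 86 without ZF rat 3, 106 and 82 without ZF rat 4, 89 and 87 without treated rat 3, 105 and 104 without treated rat 4, and 95 and 86 without treated rat 6. Hspa5, Hsp90b1, Calr and Atf4 in ZF-SGLT2i against ZL rats were called in all 22. Hspa5 in ZF-SGLT2i against ZF rats was called in 21, the exception being the replicate block with the rat number as a term (log2 fold change -0.52, adjusted p = 0.0529). With the replicate block the calls among the 10 genes became 0 (obese against lean), 0 (treated against obese) and 4 (treated against lean), those among the 170 other list genes 17, 5 and 38, and those among all genes 807, 223 and 1502 (2185, 366 and 3184 without it). Same-numbered rats had correlations of -0.38 to 0.25, and 0, 1 and 0 of 3 rats were most like their own number in the 3 comparisons. With so few shared numbers, whether a number marks something that rats share cannot be decided. Quantile normalisation left 0 calls among the 10 genes in ZF against ZL rats. In ZF-SGLT2i against ZF rats DESeq2 called 13 list genes and 641 genes in all, and array quality weights called 689 in all. With 1 rat left out, calls among the 10 genes ranged, in the same order, from 0 to 3, 1 to 2 and 5 to 7. Calls among the other list genes ranged from 26 to 43, 3 to 10 and 47 to 71, and among all genes from 1384 to 2453, 176 to 569 and 2238 to 3302. Depth limits Trib3 most, at 7 to 18 reads per rat. Scalings moved the median of all genes by less than 0.1 on the log2 scale.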
